A study of Mus musculus with 10 samples.

Results

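The genes described here are 9 transcripts of the B cell lineage (Jchain, Mzb1, Cd79a, Cd79b, Cd22, Blk, Pou2af1, Pax5 and Bank1), taken as a listed set out of 22180 genes tested. All 9 were measured, each by a single probe set that names that gene alone, so that a gene's value is the deposited log2 intensity of that probe set. The tissue was laser-captured from beneath the tracheal epithelium of 5 chlorine-exposed and 5 unexposed mice, with sections of each mouse pooled and 1 array per mouse. All were male FVB/NJ mice of 9 weeks without a named transgene or mutation, and the exposed group breathed 235 ppm of chlorine for 1 hr and was sampled 4 days later, while the unexposed group received no treatment. The series title places the samples in the development of fibrotic lesions, and the comparison asks which B lineage transcripts differed in the mesenchyme at that time.

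B cells carry an antigen receptor made of a membrane immunoglobulin and the signalling pair of CD79A and CD79B, and plasma cells are their descendants that secrete antibody. In airways, plasma cells under the epithelium and around submucosal glands make polymeric IgA, which the J chain holds together and the polymeric immunoglobulin receptor carries across the epithelium. B cells can also gather beside airways in lymphoid aggregates drawn by the chemokine CXCL13. Whole captured tissue was measured, so fewer cells of a type and less transcript per cell cannot be told apart.

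Of the 9 genes, Mzb1 and Blk fell in exposed mice, 0 rose, and 7 did not pass the test at an adjusted p under 0.05. That compares with 10.8% of all 22180 genes that passed in either direction, 5.85% higher and 4.97% lower. The median log2 change of the 9 was 0.00, against -0.003 over all genes tested. The list therefore did not move as a block, and the named B cell receptor genes Cd79a and Cd79b differed between the groups by less than the spread between mice. Both calls depended on single mice, as given with each gene.

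The promoters of 3 genes are shown because they hold a letter match to a motif of B cell transcription factors, in capitals. The octamer (ATGCAAAT, or ATTTGCAT on the other strand) is the site through which POU2AF1 works with its octamer-binding partners, and CCCNNGGG, the same on both strands, is the core bound by the B cell factor EBF1. RefSeq promoter windows of GRCm38.p6 run from 250 bases before to 50 bases after the start that each window uses. They were at hand for 6 of the 9 genes and not for Mzb1, Cd79b and Blk. Of these 6, 0 held the octamer and 2, Cd22 and Bank1, held the EBF1 core. For Cd22 and Bank1 the start used lies inside the gene as listed, whose 5′ end is at chr7:30880342 and chr3:136326141. Their windows are thus not placed at that end. Vpreb3, a B lineage gene outside the 9 that fell in exposed mice, held the octamer. It is the only gene outside the 9 whose window is given, and those of the other called B lineage genes are not reported. Over all 32851 windows the octamer was found in 1.74% and the EBF1 core in 13.7%. The windows come from the C57BL/6J reference, not from FVB/NJ mice, and a match is a description of letters only. They lie at chr7:30878979-30879278 on the minus strand for Cd22, chr3:136326017-136326316 on the minus strand for Bank1 and chr10:75948050-75948349 on the plus strand for Vpreb3, and read 5′ to 3′ on the gene's own strand as follows.
Cd22: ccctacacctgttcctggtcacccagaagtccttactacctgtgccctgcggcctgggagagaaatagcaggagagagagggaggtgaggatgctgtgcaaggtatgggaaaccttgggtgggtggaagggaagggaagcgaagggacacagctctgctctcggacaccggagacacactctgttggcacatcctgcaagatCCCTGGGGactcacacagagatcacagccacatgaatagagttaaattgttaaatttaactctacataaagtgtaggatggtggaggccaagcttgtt
Bank1: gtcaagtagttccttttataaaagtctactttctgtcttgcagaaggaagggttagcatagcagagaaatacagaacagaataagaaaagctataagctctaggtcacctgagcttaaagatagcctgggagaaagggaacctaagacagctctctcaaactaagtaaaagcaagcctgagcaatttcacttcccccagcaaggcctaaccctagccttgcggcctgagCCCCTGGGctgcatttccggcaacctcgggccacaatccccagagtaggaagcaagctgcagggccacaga
Vpreb3: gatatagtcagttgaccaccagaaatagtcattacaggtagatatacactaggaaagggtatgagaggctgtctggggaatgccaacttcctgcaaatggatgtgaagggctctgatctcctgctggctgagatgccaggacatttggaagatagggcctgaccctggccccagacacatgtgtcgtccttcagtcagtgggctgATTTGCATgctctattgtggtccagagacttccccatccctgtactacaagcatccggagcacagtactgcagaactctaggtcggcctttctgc

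The secretory members came first in size of change. Mzb1 encodes a chaperone of the endoplasmic reticulum that helps B cells and plasma cells assemble and release immunoglobulin, and it is also made by plasmacytoid dendritic cells. Its log2 values were 5.44, 5.51, 5.36, 4.24 and 5.08 in exposed mice 1 to 5, against 5.78, 5.81, 6.02, 6.13 and 6.02 in unexposed mice 1 to 5. Every exposed mouse lay below every unexposed mouse, with exposed mouse 4 the lowest. Mean values were 5.13 ± 0.52 in exposed and 5.95 ± 0.15 in unexposed mice (SD, n = 5 each), a log2 change of -0.83 (SE 0.22, 95% interval -1.30 to -0.36, limma adjusted p = 0.0307), or 0.56 times the unexposed level. Of the 9 genes only Mzb1 had groups with no shared range, against 11.0% of all genes in either direction and 5.06% with exposed mice below. By exact permutation of the mice, two-sided and not adjusted, p was 0.00794, the smallest that relabelling 10 mice can give. Any gene whose groups share no range reaches that p, so it adds nothing to the lack of overlap. The call of Mzb1 was lost without exposed mouse 5 or any 1 of the 5 unexposed mice (adjusted p 0.0130 to 0.0750 over the 10 fits, highest without unexposed mouse 4), while the log2 change stayed between -0.92 and -0.61.

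Jchain, the joining chain of polymeric IgA and IgM and a marker of antibody-secreting cells, had the widest spread. It stood at 2.94, 2.46, 2.32, 3.59 and 2.21 in exposed mice, against 2.56, 5.97, 3.42, 2.58 and 3.19 in unexposed mice. Unexposed mouse 2 was far above all others, and the remaining values of the groups overlapped. The log2 change of -0.84 (SE 0.57, 95% interval -2.09 to 0.41) did not pass the test (limma adjusted p = 0.423), and it was -0.23 without unexposed mouse 2.

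Among the receptor genes, Cd79a had log2 values of 3.44, 3.32, 3.64, 4.97 and 3.88 in exposed mice and 3.28, 3.48, 3.43, 4.39 and 3.62 in unexposed mice. Exposed mouse 4 was the highest of its group and unexposed mouse 4 of its own, and the groups overlapped. The log2 change was 0.21 (SE 0.30, 95% interval -0.46 to 0.88, limma adjusted p = 0.739), and without exposed mouse 4 it was -0.07. Cd79b, the partner chain, read 4.36, 4.60, 4.22, 5.19 and 4.45 in exposed mice and 4.34, 4.64, 4.63, 4.85 and 4.69 in unexposed mice. The same 2 mice were highest, and the log2 change was -0.06 (95% interval -0.44 to 0.31, limma adjusted p = 0.874). Cd22, an inhibitory co-receptor that binds sialic acid, read 3.57, 4.49, 4.97, 4.99 and 4.23 in exposed mice, against 3.67, 3.92, 3.82, 4.30 and 4.41 in unexposed mice. Exposed mice 2, 3 and 4 lay above every unexposed mouse and exposed mouse 1 below every one. Its log2 change of 0.43 (SE 0.26, 95% interval -0.14 to 0.99) did not pass (limma adjusted p = 0.359). The intervals leave room for changes of 0.31 to 0.99 upward and 0.14 to 0.46 downward in these 3 genes.

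Of the signalling members, Blk encodes a kinase of the Src family that acts below the B cell receptor and is also made by some gamma delta T cells. Its log2 values were 4.26, 4.36, 4.64, 4.35 and 4.65 in exposed mice and 5.15, 5.13, 5.29, 5.09 and 4.59 in unexposed mice. All exposed mice were below 4 of the 5 unexposed mice, and unexposed mouse 5 fell inside the exposed range. The means were 4.45 ± 0.18 in exposed and 5.05 ± 0.27 in unexposed mice (SD, n = 5 each), a log2 change of -0.59 (SE 0.14, 95% interval -0.90 to -0.29, limma adjusted p = 0.0188), or 0.66 times the unexposed level. The exact permutation p, not adjusted, was 0.0238. The call was lost without unexposed mouse 1 (adjusted p = 0.0501) and kept in the other 9 such fits, with adjusted p 0.00389 to 0.0484 and log2 changes of -0.71 to -0.53. It was also lost without exposed mouse 4 and unexposed mouse 2 together (-0.55, adjusted p = 0.101), a setting added after the data were seen. Bank1, a scaffold that links the receptor to calcium release, ranged from 4.40 to 4.98 among exposed mice and 4.49 to 4.73 among unexposed mice, with overlapping groups and a log2 change of 0.00 (95% interval -0.26 to 0.26).

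The nuclear members showed no call. Pou2af1, the coactivator of octamer-binding factors, read 5.49, 4.97, 4.59, 5.67 and 5.52 in exposed mice and 4.68, 4.52, 5.02, 5.51 and 4.97 in unexposed mice, a log2 change of 0.31 (95% interval -0.20 to 0.82, limma adjusted p = 0.470). Pax5, the factor that fixes B cell identity, read 5.11, 5.05, 5.05, 5.58 and 5.25 in exposed mice and 5.22, 4.93, 4.93, 4.70 and 5.38 in unexposed mice, a log2 change of 0.18 (95% interval -0.14 to 0.50, limma adjusted p = 0.521). Exposed mouse 4 was again the highest of its group in both genes, and the groups overlapped.

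**Figure D1:**
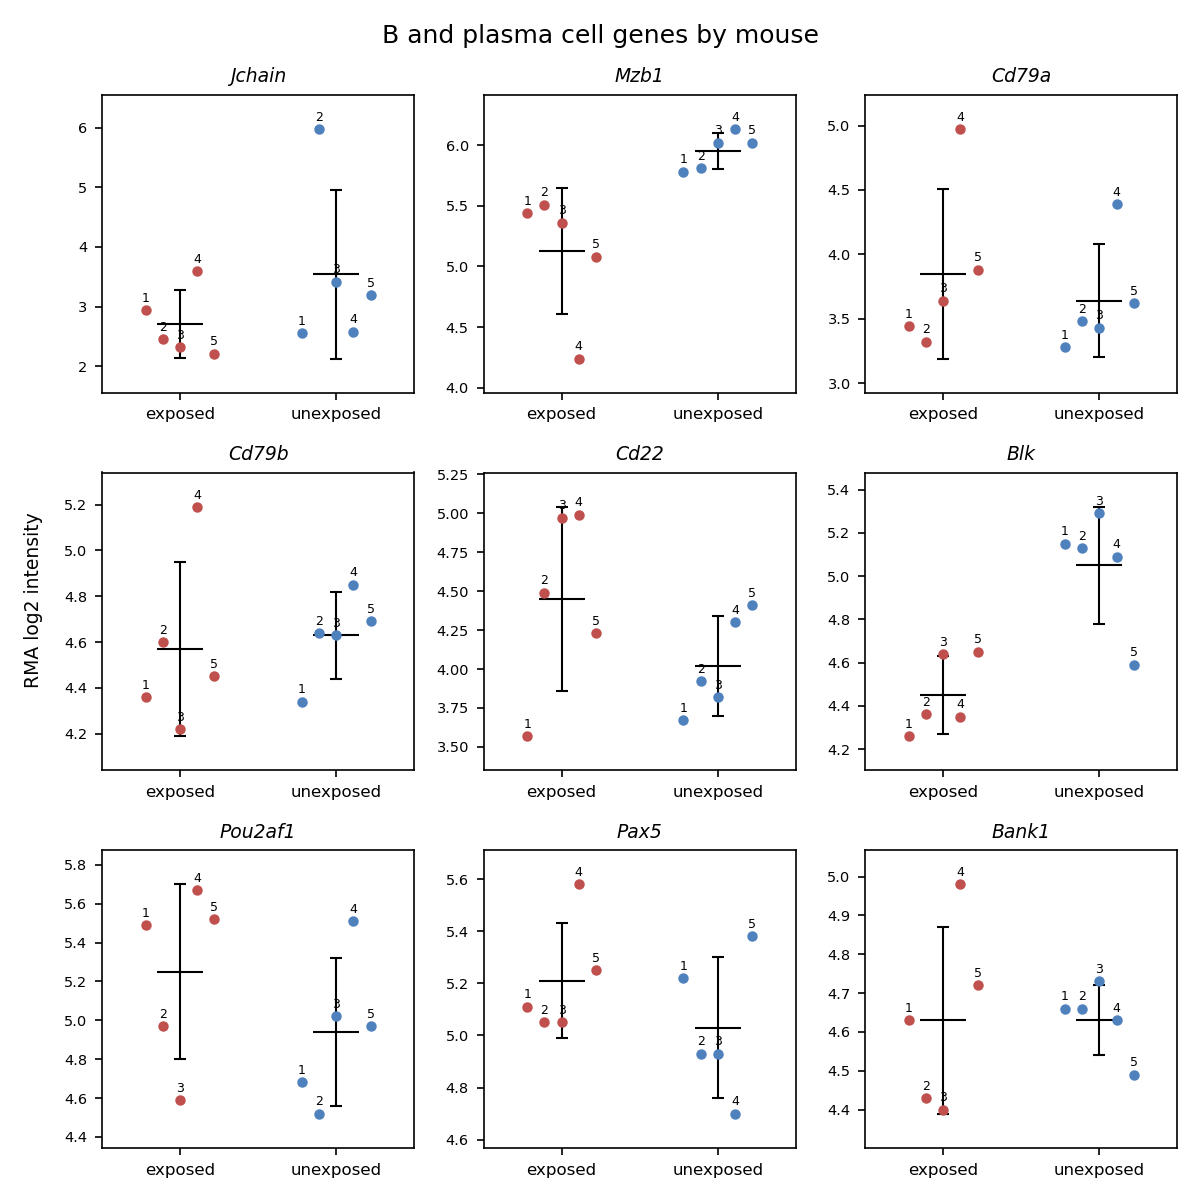
RMA log2 intensity (vertical axes, scaled for each gene) of the 9 genes in exposed mice (left, red) and unexposed mice (right, blue), numbered by mouse, with bars for mean and SD of 5 mice. The groups are apart for Mzb1, nearly apart for Blk, and overlap for the others, with Jchain set apart in unexposed mouse 2.

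**Figure D2:**
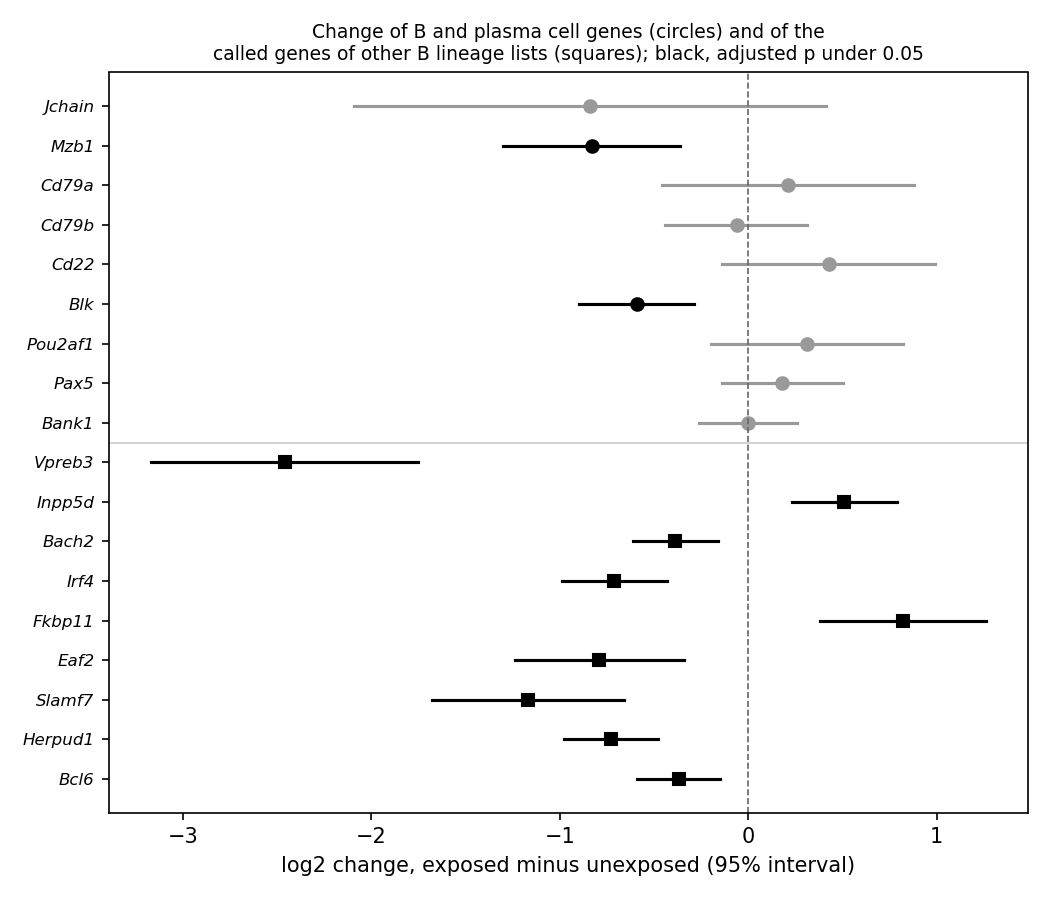
Log2 change of exposed minus unexposed mice (horizontal axis) with its 95% interval from limma for the 9 genes (circles) and the 9 genes of 5 other B lineage lists that passed the test (squares). Black marks an adjusted p under 0.05, which Mzb1 (-0.83) and Blk (-0.59) reached among the 9.

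Several of these probe sets were dim. Cd79a, Cd22 and Bank1 lay below the median of their own array in all 10 mice, and Jchain and Cd79b in 9. No detection limit was at hand, so it is not known which of these values stand above background. Of the called members, Blk lay below it in all 5 exposed and 2 unexposed mice, and Mzb1 in 2 exposed and 0 unexposed mice.

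Exposed mouse 4 stood out in this gene set. It held the highest value of its group for 7 of the 9 genes, namely Jchain, Cd79a, Cd79b, Cd22, Pou2af1, Pax5 and Bank1, and the lowest for Mzb1. For 6 of the 9 it was the highest of all 10 mice. Its mean over the 9 genes was 4.84, against 4.35 to 4.44 in the other exposed mice and 4.37 to 4.78 in unexposed mice. T cell markers were high in the same mouse: 9 of 11 were highest there within the exposed group, and their mean was 5.97, against 4.58 to 4.95 in the other exposed and 5.14 to 5.46 in unexposed mice. General leukocyte genes averaged 7.20 in that mouse, next to 7.12 in exposed mouse 3. The part of these other cells in its B lineage values was not tested.

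Immunoglobulin genes, the main product of plasma cells, were followed through 20 locus symbols with probe sets that name no other gene. By limma none passed the test in either direction, none had an unadjusted p under 0.05, and the median log2 change was -0.04. The symbols were dim on average. Their mean was 2.98 to 3.76 among exposed mice and 2.92 to 3.59 among unexposed mice, against array medians of 5.10 to 5.18. Ighm and Ighg3 were the only constant-region genes among them, and the IgA constant region was not. Whether immunoglobulin output changed therefore cannot be judged from these symbols. The smallest p belonged to Ighv1-54 (log2 change 0.26, adjusted p = 0.284) and Igkv9-120 (1.71, adjusted p = 0.292). Single mice nevertheless stood far apart. The kappa variable gene Igkv4-59 read 1.62, 1.94, 1.92, 4.88 and 2.08 in exposed mice and 1.89, 6.79, 1.93, 1.91 and 1.77 in unexposed mice. Its high values were in exposed mouse 4 and unexposed mouse 2, the mice that also led Jchain in their groups. Igkv4-70 was highest of each group in the same mice, at 3.58 and 5.30. So was Igkv4-72, at 4.60 and 5.28, but it also read 4.66 in unexposed mouse 5. The fourth Igkv4 gene, Igkv4-91, was instead highest in exposed mouse 1 (4.23, against 4.01 in exposed mouse 4) and unexposed mouse 5 (3.90, against 3.77 in unexposed mouse 2). Igkv9-120 was high only in exposed mice 4 and 1, at 6.86 and 4.63, against 1.39 to 1.71 in the other exposed and 1.12 to 1.77 in unexposed mice. Kappa variable genes resemble one another closely and may share probes, so the single names are uncertain. The Igkv4 genes were chosen after their values were seen.

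**Figure D3:**
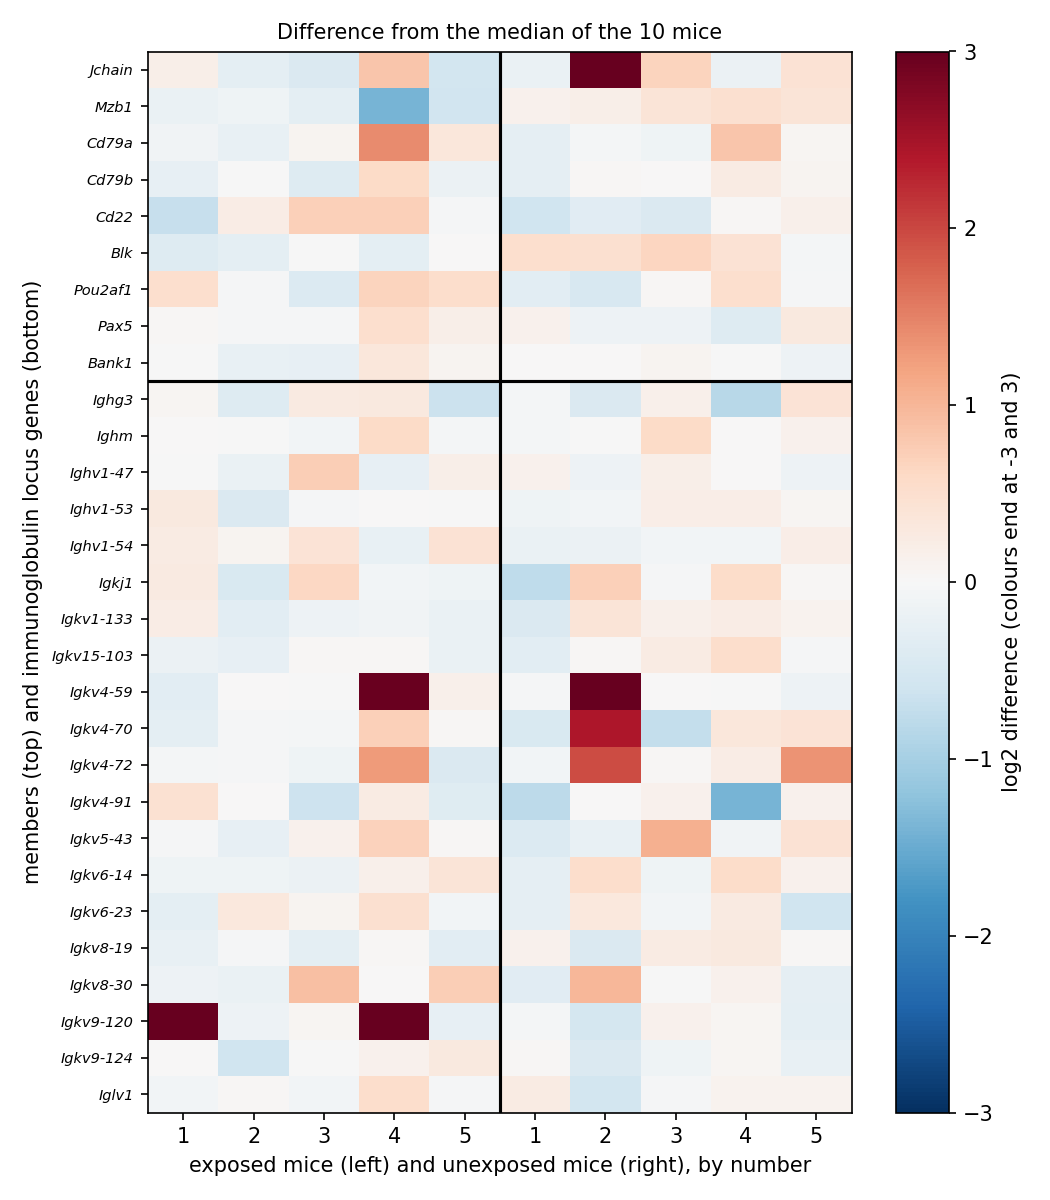
Difference of each log2 value from the gene's median over the 10 mice (colour, ending at -3 and 3) for the 9 genes above and 20 immunoglobulin locus genes below, with exposed mice 1 to 5 left and unexposed mice 1 to 5 right. Exposed mouse 4 and unexposed mouse 2 share high Igkv4-59, Igkv4-70 and Igkv4-72, and Jchain is highest in unexposed mouse 2. Igkv4-72 is also high in unexposed mouse 5.

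Other genes of the B lineage were given by 6 further lists with 76 entries, of which 68 were measured, 4 rose, 10 fell and 54 did not pass, with a median log2 change of 0.03. Over all genes tested 10.8% passed, 5.85% higher and 4.97% lower. Of 11 surface and receptor genes 1 fell and 0 rose. That gene was Vpreb3, an immunoglobulin-like protein of the VpreB family known from developing B cells, which read 5.59, 5.55, 5.10, 4.09 and 3.99 in exposed mice and 7.67, 7.03, 6.98, 7.69 and 7.26 in unexposed mice. The groups were far apart, with a log2 change of -2.46 (SE 0.33, limma adjusted p = 0.000717), while Ms4a1, which encodes the B cell antigen CD20, had one of 0.08 (adjusted p = 0.852). Of 8 submucosal and serous gland markers 1, Prom1, fell, with list means of 6.18 to 9.56 among exposed mice and 9.35 to 10.14 among unexposed mice. That count was 4 without exposed mouse 3 and 0 without unexposed mouse 1 or 4. The median log2 change of the 8 was -1.56, and only Aqp5 changed upward (0.50, limma adjusted p = 0.281). For 3 of the 8 (Ltf, Bpifa1 and Prom1) every exposed mouse lay below every unexposed mouse, against 5.06% of all genes. The part of glands in the change of Vpreb3 was not tested.

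Of 12 receptor signalling genes, the inositol phosphatase Inpp5d, which restrains receptor signals in many leukocytes, rose by 0.51 (adjusted p = 0.0264) and 11 did not pass. Of 11 transcription factors, Bach2, a repressor that holds B cells back from plasma cell fate, fell by 0.39 on the log2 scale (adjusted p = 0.0317) and 10 did not pass. Of 6 germinal centre genes, Bcl6 fell by 0.37 on the log2 scale (adjusted p = 0.0390). It encodes a repressor that drives the germinal centre state and acts in other cell types too. Of 12 other plasma cell genes 1 rose and 4 fell. Irf4, a factor of plasma cell differentiation, fell to 4.56 ± 0.27 in exposed mice, against 5.27 ± 0.11 in unexposed mice (SD, n = 5 each; log2 change -0.71, adjusted p = 0.00486). Slamf7, a surface receptor of plasma and other lymphoid cells, changed by -1.17 (adjusted p = 0.00826), Eaf2 by -0.79 (adjusted p = 0.0295) and Herpud1, a gene of endoplasmic reticulum quality control in all cells, by -0.73 (adjusted p = 0.00207). Fkbp11, a secretory-pathway isomerase, rose by 0.82 (adjusted p = 0.0241). The plasma cell factors Prdm1 (0.24, adjusted p = 0.348) and Xbp1 (0.12, adjusted p = 0.462) and the surface receptor Tnfrsf17 (-0.03, adjusted p = 0.937) did not pass; these and Ms4a1 were named after their values were seen. Vpreb3, Irf4, Slamf7 and Herpud1 kept their calls in all 10 fits that left out 1 mouse. For Inpp5d, 6 of these fits ended the call: those without exposed mouse 2, 3 or 4, or without unexposed mouse 1, 2 or 4 (range of adjusted p 0.00747 to 0.0695). Bach2 was called in 2 of the 10, with either exposed mouse 1 or unexposed mouse 2 removed (range 0.00702 to 0.0791), and Bcl6 in 2, with either exposed mouse 1 or exposed mouse 3 removed (range 0.0178 to 0.0957). Removal of exposed mouse 2, exposed mouse 4, or unexposed mouse 1, 2 or 3 ended the call of Fkbp11 (range 0.00849 to 0.0616). Removal of exposed mouse 3, exposed mouse 5, or unexposed mouse 1, 2 or 4 ended that of Eaf2 (range 0.0136 to 0.0743). With the leukocyte mean as a covariate the calls of Bach2, Bcl6 and Eaf2 were lost (adjusted p = 0.0556, 0.0714 and 0.0526), and with array median centring that of Bcl6 (adjusted p = 0.0582).

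Genes that draw, feed or serve B cells went both ways, with 2 of 16 higher, 3 lower and 11 not passing. For this and the later lists, the share over all genes tested was 5.85% higher and 4.97% lower. Cxcl13, the chemokine of B cell follicles, read 7.72, 7.19, 7.65, 7.74 and 9.67 in exposed mice and 6.16, 5.58, 6.06, 6.59 and 6.01 in unexposed mice. All exposed mice were above all unexposed mice, exposed mouse 5 by the most, and the log2 change was 1.91 (SE 0.39, limma adjusted p = 0.00927), or 3.77-fold. Its receptor Cxcr5 had a log2 change of 0.01 (adjusted p = 0.958). Il6, a cytokine that supports plasma cells and is induced in many injured tissues, rose by 2.44 (adjusted p = 0.000304), reading 5.12, 5.35, 4.84, 6.29 and 4.90 in exposed mice against 2.58, 3.11, 3.25, 3.09 and 2.27 in unexposed mice. Macrophage markers rose as well, in 7 of 9 (Adgre1, Cd68, Mrc1, C1qa, C1qb, C1qc and Fcgr1, by 0.75 to 1.79), with list means of 7.38 to 8.23 among exposed mice and 6.47 to 6.98 among unexposed mice, and their part in these changes was not tested.

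The 3 called genes of that list that fell were Ccl28, Pigr and Ccl20. Ccl28, a chemokine for IgA plasma cells, read 6.82, 6.56, 5.57, 6.44 and 5.87 in exposed mice and 7.74, 7.95, 7.96, 8.09 and 7.48 in unexposed mice (log2 change -1.60, SE 0.22, limma adjusted p = 0.000994). Pigr, the carrier of polymeric immunoglobulin, read 7.82, 7.63, 3.99, 6.61 and 7.38 in exposed mice and 9.48, 9.50, 9.41, 9.92 and 9.16 in unexposed mice. Its log2 change was -2.81 (SE 0.60, limma adjusted p = 0.0121), or -2.13 without exposed mouse 3. Ccl20, which attracts cells that bear CCR6, among them B cells, ranged from 5.00 to 5.24 among exposed mice and 6.16 to 7.33 among unexposed mice (log2 change -1.80, adjusted p = 0.000161). In all 3 genes every exposed mouse lay below every unexposed mouse, against 5.06% of all genes. The 3 were named because they passed the test, which favours groups that do not overlap. Gland markers averaged 6.18 to 9.56 among exposed mice and 9.35 to 10.14 among unexposed mice and epithelial markers 8.27 to 9.26 among exposed mice and 8.68 to 9.14 among unexposed mice, and their part in these changes was not tested. Ccr10, a receptor of CCL28, and Ccr6, the receptor of CCL20, did not pass (log2 change -0.28, adjusted p = 0.219, and -0.18, adjusted p = 0.440), nor did the B cell survival factor Tnfsf13b (0.68, adjusted p = 0.0960); these 3 and Cxcr5 were named after their values were seen. Without exposed mouse 1, Tnfsf13b, Tgfb1 and Il21r also passed, giving 8 called genes in place of 5.

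**Figure D4:**
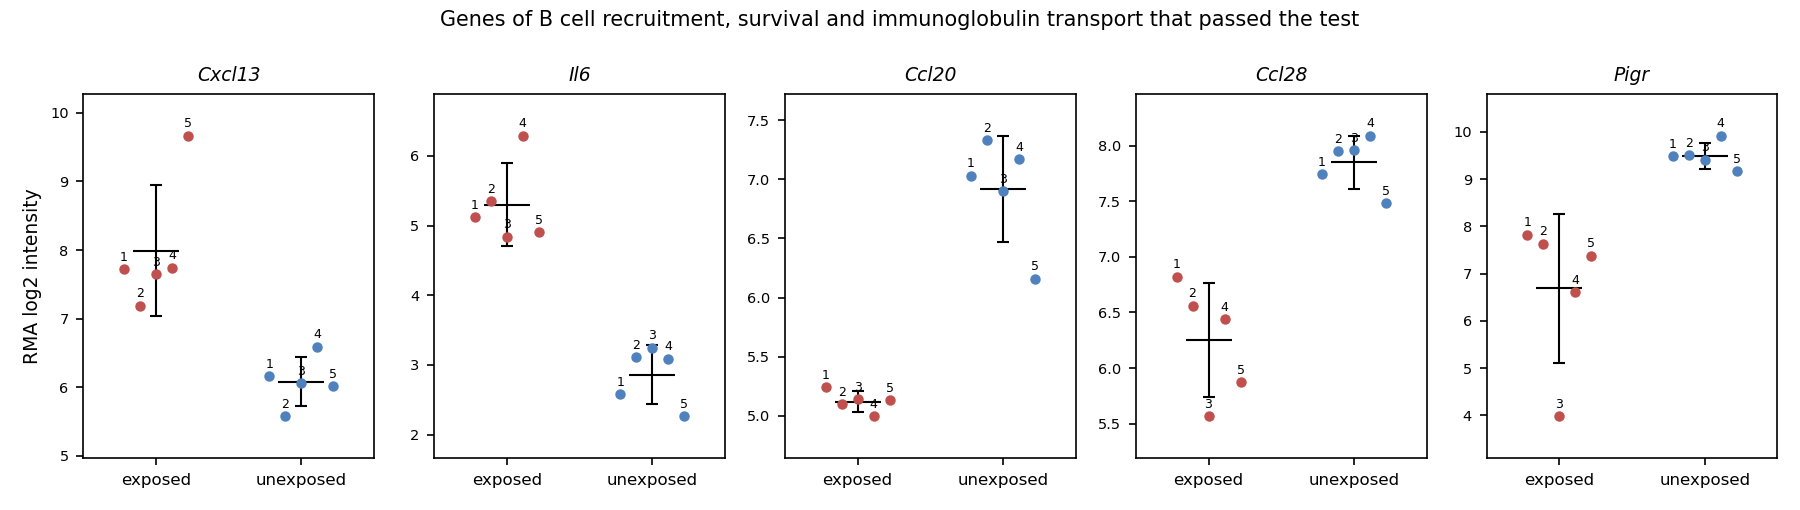
RMA log2 intensity (vertical axes, scaled for each gene) of Cxcl13, Il6, Ccl20, Ccl28 and Pigr in exposed mice (left, red) and unexposed mice (right, blue), numbered by mouse, with bars for mean and SD of 5 mice. The groups do not overlap in any of the 5, with Cxcl13 and Il6 higher and Ccl20, Ccl28 and Pigr lower in exposed mice. The 5 were picked as called genes, and 11.0% of all genes had groups that do not overlap.

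Markers of cells that could share the members' transcripts gave the following counts. Of 8 plasmacytoid dendritic cell markers 3 rose (Bst2, Ly6d and Cox6a2, none of them made by these cells alone) and 1, Ccr9, fell, with list means of 6.40 to 7.30 among exposed mice and 6.08 to 6.37 among unexposed mice. Siglech, a surface receptor of these cells named after its values were seen, read 5.16 to 6.34 among exposed mice and 5.32 to 5.77 among unexposed mice (log2 change 0.09, adjusted p = 0.839). Among these 8 markers Ly6d changed most (3.10) and weighs heavily on the list means. It read 5.75 in exposed mouse 3, whose list mean was the 6.40, and 9.39 to 9.66 in the other exposed mice. Of 11 T cell markers Cd3g fell, spanning 2.94 to 6.11 across exposed mice and 5.89 to 6.41 across unexposed mice (log2 change -2.08, adjusted p = 0.0167), and 10 did not pass; without exposed mouse 4, 4 passed. Of 8 general leukocyte genes 1 rose, Cd53, with list means of 6.19 to 7.20 among exposed mice and 6.29 to 6.78 among unexposed mice; 3 were called without exposed mouse 1, and 0 on removal of exposed mouse 2, 3 or 4, as of unexposed mouse 1, 2, 4 or 5. With the general leukocyte mean of each mouse as a covariate, the log2 change was -0.63 for Blk (limma adjusted p = 0.0207) and -0.77 for Mzb1 (adjusted p = 0.0579). That mean stands for no single cell type. The part of plasmacytoid dendritic cells, T cells or other leukocytes in the changes of Mzb1 and Blk was not tested.

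The captured tissue was labelled as mesenchyme, and connective tissue markers averaged 10.1 to 10.83 among exposed mice and 9.80 to 10.13 among unexposed mice, with 4 of 8 higher (Col1a1, Col3a1, Pdgfra and Vim). That count was 2 without exposed mouse 4, unexposed mouse 1 or unexposed mouse 5. Epithelial transcripts were present too, with 0 of 6 markers called by limma and 1, Krt8, at an unadjusted p under 0.05 (log2 change 0.36, adjusted p = 0.102; Cdh1 -0.37, adjusted p = 0.480). Neutrophil markers rose in 2 of 8 (S100a8 and S100a9), a count of 4 without exposed mouse 5 and 1 when exposed mouse 2, exposed mouse 4 or unexposed mouse 1 was removed. Of 6 cartilage markers 1 fell, Matn1, or 3 without exposed mouse 3. Exposed mouse 3 had the lowest gland and epithelial means, 6.18 and 8.27.

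**Figure D5:**
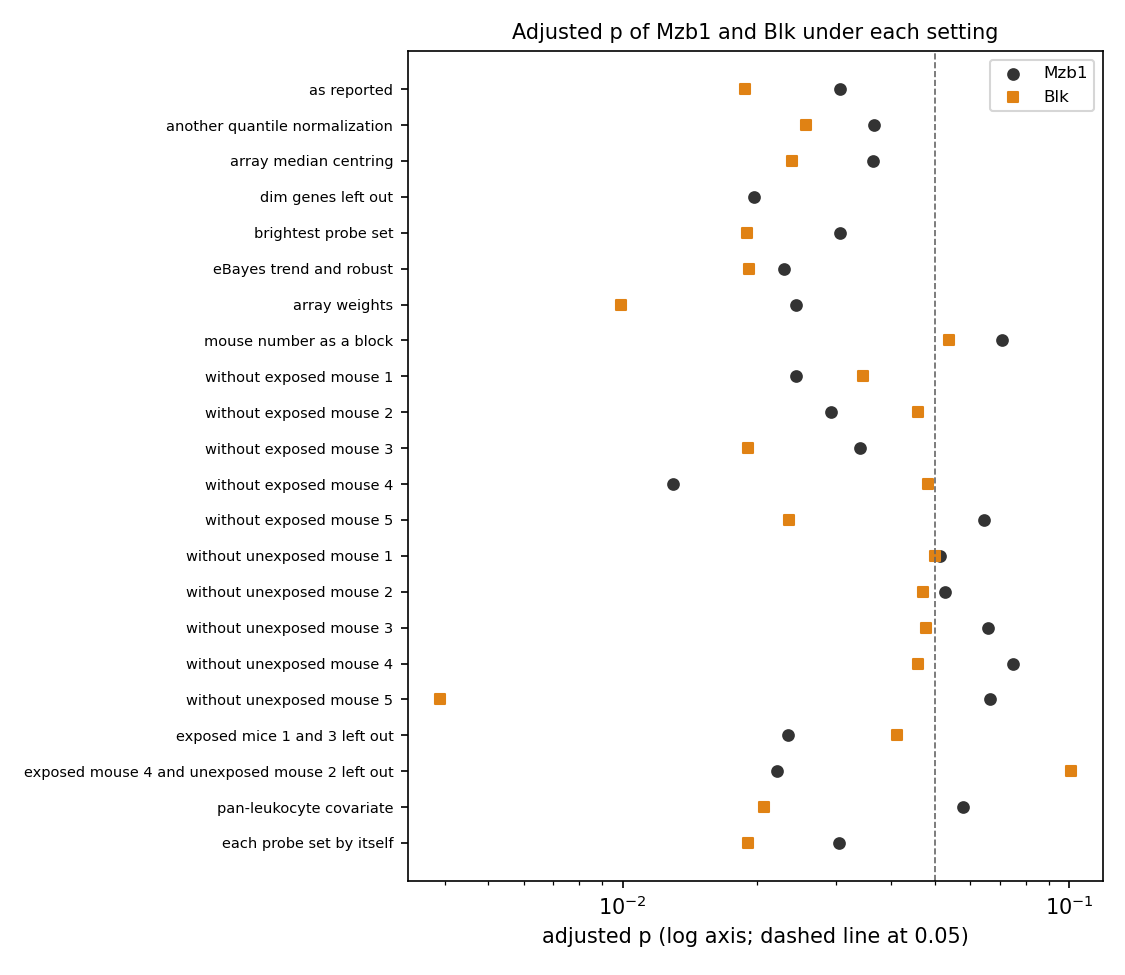
Adjusted p of Mzb1 (circles) and Blk (squares) on a log axis, with a dashed line at 0.05, for the fit as reported and each alternative fit (rows). Mzb1 crosses the line without exposed mouse 5 or any 1 unexposed mouse, with the mouse number as a block and with the leukocyte covariate. Blk crosses it without unexposed mouse 1 (0.0501) and with the block (0.0538), and reaches 0.101 without exposed mouse 4 and unexposed mouse 2.

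Over the 10 mice, the genes most like the mean of the 9 members were Ltb, Cyp2b19, Vmn1r42, Il2rb and Dll4, out of 6420 genes with an SD of at least 0.3. Ltb, a lymphotoxin chain made by B and T cells, had a Pearson's r of 0.943 (Spearman's rho 0.939, n = 10 mice), or 0.872 without exposed mouse 4 and unexposed mouse 2, which lay farthest from the median. Il2rb, a receptor chain of T and NK cells, had an r of 0.879 (rho 0.758), and the other 3 had r of 0.877 to 0.904. With each group's mean taken off, Il2rb (0.936), Ltb (0.934), Has1 (0.930), Khdc1c (0.916) and Cldn34b3 (0.915) were the closest. The mean is led by Jchain, its most variable member, and these are the top values of a search over many genes, given as a description.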

How the data were processed

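Per the labels' protocols, PicoPure RNA from pooled laser-captured sections of each mouse was labelled by the Affymetrix WT Plus method. The deposited values are log2 intensities, which the submitters' processing notes credit to RMA (robust multi-array averaging) in Partek 6.6. The settings of that step are not known, and the log base was read from the range of the values. Of 41345 probe sets (array medians 5.10 to 5.18), 23521 had 1 gene symbol in the platform annotation, 1814 had several and 16010 were unnamed here. Symbols were checked by gene identifier against RefSeq GRCm38.p6 (23328 found, 0 changed), and probe sets of a gene were averaged, which gave 22180 genes. Precision is limited by the number of arrays.

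The comparison used lmFit and eBayes of limma 3.58.1, run in R 4.3.3 (two-sided, Benjamini-Hochberg over all genes, adjusted p under 0.05), after a test on simulated data. Intervals are limma's, at 95% and not adjusted. Named were the 9 members, the called genes of each list (or the 2 with the smallest p where none was called), the 5 genes most like the members by each measure, and genes said to be chosen after their values were seen. Members and lists were chosen with earlier results of these data known. Ighmbp2, which is no immunoglobulin gene, was kept out of the immunoglobulin symbols. Of 151 list entries 140 were measured. The labels name no pairing of same-numbered mice (r of deviations -0.049 to 0.125 over 5 pairs). Alternatives covered normalization, filters, probe sets, variance models, a replicate block, mice left out, a leukocyte covariate and a stricter threshold. Python 3.11.15, pandas 2.3.3, scipy 1.17.1 and matplotlib 3.10.9 were used.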

Additional observations from a re-analysis of the deposited data

Results flagged for a closer look

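In 86 groups of 5 mice (the 9 members, the called genes of the other B lineage lists and the immunoglobulin genes), 10 held a mouse whose gap to the next was over 0.71 of the group's range; chance alone gives about 1 in 20. Among the members these were Jchain in unexposed mouse 2 (5.97, the others 2.56 to 3.42) and Blk in unexposed mouse 5 (4.59, the others 5.09 to 5.29). Exposed mouse 4 was set apart in Igkv4-59 (4.88, the others 1.62 to 2.08), Igkv4-72 (4.60, the others 2.89 to 3.29), Iglv1 (4.56, the others 3.94 to 4.06) and Ighm (5.34, the others 4.69 to 4.79). Unexposed mouse 2 was set apart in Igkv4-59 (6.79, the others 1.77 to 1.93) and unexposed mouse 3 in Ighm (5.35, the others 4.72 to 4.89). Cxcl13 was far higher in exposed mouse 5 (9.67, the others 7.19 to 7.74), and Bach2 was higher in exposed mouse 1 (5.51, the others 5.12 to 5.16).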

How the results depend on the processing

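The count of 2 called members became 1 with dim genes left out (Mzb1 alone of the 9 was tested, so that their median was -0.83), 1 with the leukocyte covariate, 1 without exposed mouse 4 and unexposed mouse 2 together (added after the data were seen), 0 at an adjusted p under 0.01 and 0 with the mouse number as a replicate block (Mzb1 adjusted p = 0.0707, Blk adjusted p = 0.0538). With 1 mouse left out it ranged from 0 (without unexposed mouse 1) to 2, and the median change of the members from -0.09 to 0.06. The labels name no pairing, and whether same-numbered mice were handled together is not known. Of 5 same-numbered pairs 2 had r over 0.1, and 1 of 5 exposed mice correlated best with its own number, which cannot decide it. Other quantile normalization, array median centring, the brightest probe set, single probe sets, eBayes trend and robust settings, array weights and exposed mice 1 and 3 left out kept both calls. Changes of uncalled members turned sign for Bank1 under other quantile normalization (0.02), median centring (0.03) and without exposed mice 1 and 3 (0.08), for Cd79b without exposed mice 1 and 3 (0.12) and for Cd79a without exposed mouse 4 and unexposed mouse 2 (-0.11); with 1 mouse left out, they ranged from -0.09 to 0.06 for Bank1, -0.22 to 0.02 for Cd79b and -0.07 to 0.40 for Cd79a. Of the other lists, 35 genes were called, 17 at an adjusted p under 0.01, 22 without exposed mouse 4 and unexposed mouse 2, and 24 to 44 with 1 mouse left out. In that fit without 2 mice the calls of Cxcl13, Pigr, Bach2, Bcl6, Eaf2, Fkbp11 and Inpp5d were lost (adjusted p 0.0507 to 0.160), and with the block those of Bach2 (adjusted p = 0.0559) and Bcl6 (adjusted p = 0.0900). No immunoglobulin gene was called under any alternative run. The causes were not tested. Signal over background could not be judged.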

Other observations

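Another 5 probe sets name several genes, all of immunoglobulin loci, and entered no comparison. One that names kappa genes alone read 8.15, 4.68, 5.39, 9.98 and 6.87 in exposed mice and 4.25, 11.46, 9.43, 6.03 and 7.98 in unexposed mice. A second kappa probe set read 6.62, 7.04, 6.85, 9.40 and 6.57 in exposed mice and 6.46, 8.30, 6.36, 6.76 and 6.56 in unexposed mice. A heavy chain probe set read 4.57, 3.46, 3.77, 6.52 and 3.93 in exposed mice and 3.53, 7.17, 4.28, 4.46 and 6.61 in unexposed mice. In all 5, exposed mouse 4 was the highest of its group, and in 4 of the 5 unexposed mouse 2 was the highest of its own. Differences between the group means ran from -0.82 to 0.41 on the log2 scale, each with overlapping groups.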
